A study of Homo sapiens with 6 samples.

Results

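The enzymes that write, read and erase DNA methylation, and the core of the Polycomb complex PRC2, were followed in Hs578T cells with and without CCN3 knockdown. This line comes from a triple-negative breast carcinoma. The set was fixed by gene symbol and holds 10 genes, DNMT1, DNMT3A, DNMT3B, UHRF1, TET1, TET2, TET3, EZH2, EZH1 and SUZ12, of 46427 genes in the deposited table of raw read counts, and all 10 passed the filter on low counts. RNA-seq libraries came from 3 samples of cells transduced with a retroviral control shRNA vector (shCTRL) and 3 samples transduced with the same pSUPER vector carrying CCN3 shRNA #2 (shCCN3). The transduced cells were selected with puromycin, and the study's methods speak of selected clones. Only 1 hairpin was sequenced, so effects of the selected cells or of the hairpin cannot be told apart from an effect of CCN3. The series' design text calls the samples of each group biologically independent, without saying how they were separated. DNA methylation and histone marks were not measured, and all values below are mRNA.

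DNA methylation is copied onto the new strand after replication by DNMT1, which UHRF1 brings to hemimethylated sites, while DNMT3A and DNMT3B methylate new sites. The TET dioxygenases oxidise 5-methylcytosine and so start its removal. PRC2 trimethylates lysine 27 of histone H3 through EZH2 or its relative EZH1, needs SUZ12 as a scaffold, and acts with PRC1, which monoubiquitinates histone H2A. In many tumours, EZH2, UHRF1 and DNMT1 mRNA are known to follow proliferation, since E2F factors drive these genes.

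The libraries held between 56159110 and 68393177 counts. Values are given as CPM, the reads of a gene scaled to a common library size with TMM factors, and 3 counts corresponded to 0.0435 to 0.0540 CPM, a limit that covers counting error only. CCN3 itself had 101 ± 2.43 CPM (SD, n = 3) in the control cells and 47.0 ± 0.469 CPM (SD, n = 3) under its hairpin. Of 6 markers of a mesenchymal line, the lowest was ZEB1 with 43.8 to 61.5 CPM. ESR1, CDH1 and EPCAM stayed at or under 0.156 CPM, PTPRC of blood cells stayed at or under 0.203 CPM, while PGR reached 4.57 CPM, ERBB3 1.27 CPM and PECAM1, an endothelial marker, 4.35 CPM. In RNA from whole cultures, fewer cells that express a gene and less RNA per cell cannot be told apart.

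One library stood furthest from its group in these genes. In shCCN3 replicate 2, 9 of the 10 enzymes, every one except EZH2, were lower than in both other shCCN3 libraries, and their median difference was -0.28 on the log2 scale. The same library was low for long transcripts and for those of low GC content in general. It was the lowest of the 3 shCCN3 libraries for 41.9% of all genes tested. Over the tertile of genes with the longest merged exons (6.31 kb or more) its median difference from the other shCCN3 libraries was -0.13, and over the tertile with the shortest (up to 3.53 kb) it was 0.13. In the longest tertile it was the lowest of 3 for 66.3% of genes. Of the 10 enzymes, 7 belong to the longest tertile and 0 to the shortest. By GC content its median difference was -0.098 over the lowest tertile and 0.083 over the highest. The 4 enzymes of the highest GC tertile, DNMT1, DNMT3A, DNMT3B and UHRF1, had differences of -0.30 to -0.14. Among the controls, shCTRL replicate 3 leaned the same way. Its median difference was -0.067 over the longest tertile, where it was the lowest of 3 for 56.7% of genes. By GC content it was -0.080 over the lowest tertile and 0.084 over the highest. In shCTRL replicate 3, 6 of the 10 enzymes were the lowest of their group, which raises their fold changes. The part of transcript length and GC content in the results was not tested apart from the offset for both given below. Results that rest on shCCN3 replicate 2 are therefore given with and without it. It was singled out partly because 9 of the 10 enzymes were lowest in it. Leaving it out must therefore raise the fold changes of those 9, and fits without it are no independent evidence for a rise.

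Across the 10 enzymes, CCN3 knockdown cells had more TET1 mRNA and less EZH2 mRNA, and the other 8 did not pass an adjusted p of 0.05 (quasi-likelihood test of edgeR, p-values adjusted by the Benjamini-Hochberg method over all 17419 genes tested). Of these 17419 genes, 33.4% were called, 16.2% as higher and 17.3% as lower in shCCN3 cells, against 2 of the 10 enzymes, 1 in each direction. In 3 enzymes, TET1, EZH2 and DNMT3B, the groups did not overlap, against 46.3% of all genes. The share of enzymes called, 20%, lay below that of all genes. Their median log2 fold change was 0.14, beside 0.01 over all genes tested. The enzymes have longer exons than most genes, so these medians are not like for like. Under an offset for exon length and GC content the median of the enzymes was 0.094. It was 0.049 without shCCN3 replicate 3, 0.088 without shCCN3 replicate 1 and 0.21 without shCCN3 replicate 2. Without any one shCTRL library it was 0.105 to 0.136. Without shCCN3 replicate 2, 4 of the 10 were called, TET1, TET3 and SUZ12 as higher and EZH2 as lower, against 40.5% of all genes (20% called higher and 20.5% called lower). The same 4 were called with DESeq2, where the background was 35.5%, and with an offset for exon length and GC content, where it was 39.1%. Other scalings and filters, limma-voom and a replicate block each called only TET1 and EZH2, where 20.4 to 35.1% of all genes were called. Without shCTRL replicate 1, TET1, SUZ12 and EZH2 were called against 27% of all genes.

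**Figure D1:**
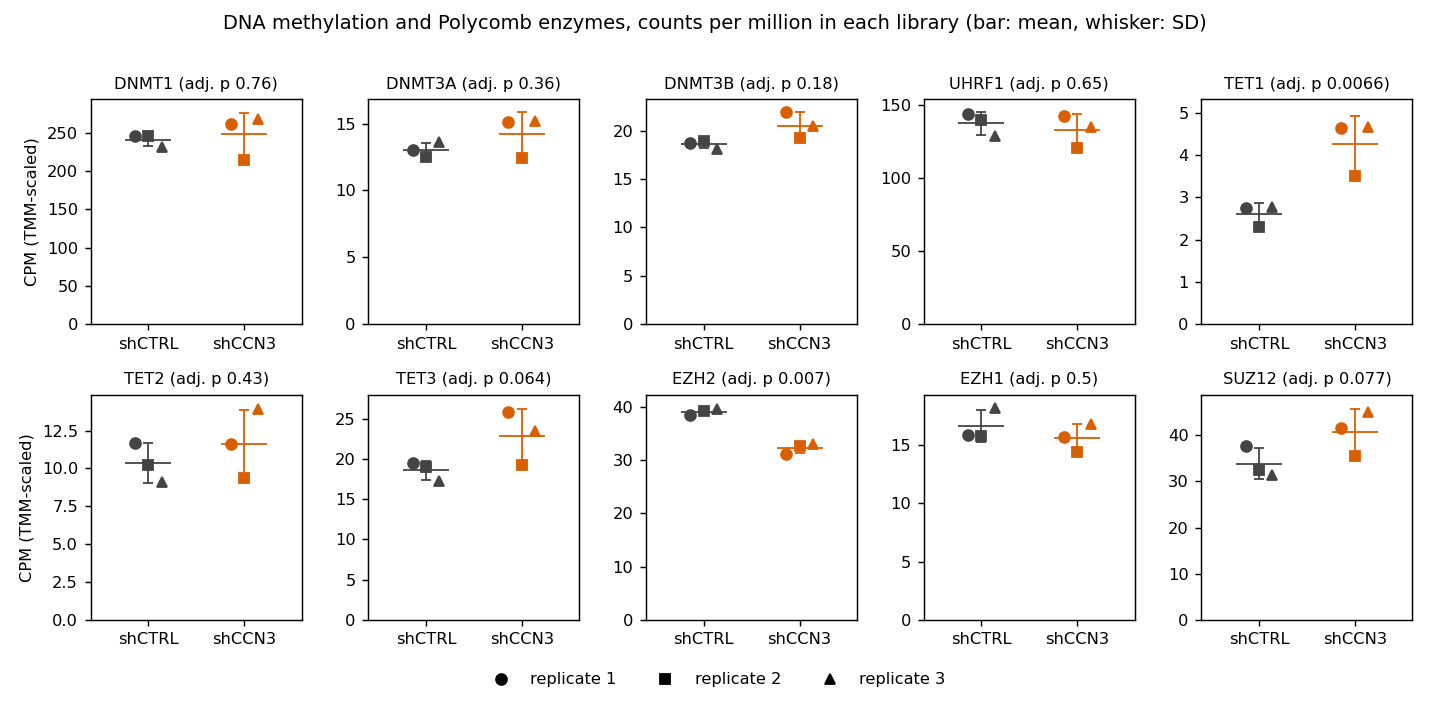
CPM (y axis, from 0) of each enzyme in the 3 shCTRL and the 3 shCCN3 libraries, with symbols for the replicates, a bar for the mean and whiskers for the SD. TET1 lies higher and EZH2 lower in all 3 shCCN3 libraries, and the square of shCCN3 replicate 2 is the lowest of its group in every panel except that of EZH2.

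Among the erasers, TET1, whose product carries a CXXC domain that binds CpG-rich DNA, was the only one called. TET1 (NCBI Gene 80312) lies on chromosome 10 from 68560337 to 68694487 (RefSeq, GRCh38.p14). It measured 2.74, 2.29 and 2.77 CPM in the shCTRL libraries and 4.63, 3.49 and 4.66 CPM in the shCCN3 libraries. The lowest shCCN3 library was above the highest shCTRL library, in reads 194 to 319 against 144 to 188. TET1 rose 1.64-fold, log2 fold change 0.71 (standard error, SE, 0.155, 95% interval 0.36 to 1.06, edgeR adjusted p = 0.00662). By exact permutation of the 6 library labels the two-sided p was 0.1, which is the minimum for 3 against 3, and the same holds for the other genes without overlap. Leaving out single libraries gave TET1 log2 fold changes of 0.63 to 0.84, with adjusted p-values up to 0.0344. TET1 was the least abundant of the 10 enzymes in both groups, so its rise was a large relative change at a low level.

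TET3, which is best known from the oocyte and the early embryo, measured 19.5, 19.0 and 17.3 CPM in the shCTRL libraries and 25.8, 19.3 and 23.5 CPM in the shCCN3 libraries. Here shCCN3 replicate 2 lay just under the highest shCTRL library, and the other shCCN3 libraries lay above all controls. The log2 fold change was 0.30 (SE 0.110, 95% interval 0.05 to 0.55) with an edgeR adjusted p of 0.0642. It was 0.41 with an adjusted p of 0.00284 when shCCN3 replicate 2 was left out, and 0.20 to 0.34 with adjusted p-values of 0.0938 to 0.235 when any other library was. With all 6 libraries, TET3 also passed with DESeq2 (adjusted p = 0.0361) and with the offset for exon length and GC content (adjusted p = 0.0163). It did not pass with other scalings and filters, limma-voom or the replicate block (adjusted p of 0.0557 to 0.0910).

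TET2, a frequent target of mutation in blood cancers, measured 11.7, 10.2 and 9.13 CPM in the shCTRL libraries and 11.6, 9.36 and 13.9 CPM in the shCCN3 libraries. The groups overlapped widely, and the log2 fold change was 0.17 (95% interval -0.17 to 0.50, edgeR adjusted p = 0.434). It was 0.30 (edgeR adjusted p = 0.0701) without shCCN3 replicate 2 and 0.019 (edgeR adjusted p = 0.945) without shCCN3 replicate 3, so single libraries set its size. Per library, the ratio of TET1 to TET2 reads was 0.234, 0.224 and 0.303 in shCTRL and 0.399, 0.373 and 0.335 in shCCN3 cells. These ratios did not overlap between the groups (exact permutation test, two-sided p = 0.1, adjusted over 6 ratios p = 0.3). The TET3 to TET2 ratio was 1.80 ± 0.119 in shCTRL and 1.99 ± 0.273 in shCCN3 cells (SD, n = 3 each) and overlapped.

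Among the writers of DNA methylation, none was called. DNMT1 measured 246, 245 and 231 CPM in the shCTRL libraries and 261, 215 and 267 CPM in the shCCN3 libraries. The shCCN3 libraries lay on both sides of the controls. The log2 fold change was 0.04 (SE 0.085, edgeR adjusted p = 0.761), and its 95% interval of -0.15 to 0.23 sets the size of change that these libraries could have missed. In GENCODE release 29, 83 of the 9796 exon bases of DNMT1 also belong to S1PR2.

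UHRF1, the reader that places DNMT1 at replicated DNA, measured 144, 140 and 129 CPM in the shCTRL libraries and 142, 121 and 135 CPM in the shCCN3 libraries. Its log2 fold change was -0.05 (95% interval -0.22 to 0.12, edgeR adjusted p = 0.648), and its groups overlapped. The ratio of DNMT1 to UHRF1 reads was 1.75 ± 0.0417 in shCTRL and 1.86 ± 0.104 in shCCN3 cells (SD, n = 3 each). Those ratios overlapped as well (exact permutation test, two-sided p = 0.2, adjusted p = 0.3).

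The de novo enzymes were expressed at a far lower level. DNMT3B measured 18.7, 19.0 and 18.1 CPM in the shCTRL libraries and 21.9, 19.2 and 20.4 CPM in the shCCN3 libraries. Every shCCN3 library was above every shCTRL library, by a small margin for replicate 2, and the log2 fold change of 0.14 (95% interval -0.03 to 0.31) did not pass, with an edgeR adjusted p of 0.184. DNMT3A measured 13.0, 12.5 and 13.6 CPM in the shCTRL libraries and 15.1, 12.4 and 15.2 CPM in the shCCN3 libraries, and its replicate 2 fell below all controls. The log2 fold change of DNMT3A was 0.13 (95% interval -0.09 to 0.35, edgeR adjusted p = 0.358). Without shCCN3 replicate 2 it was 0.22, with an edgeR adjusted p of 0.0502. The ratio of DNMT3B to DNMT3A reads overlapped, with 1.43 ± 0.0917 in shCTRL and 1.45 ± 0.102 in shCCN3 cells (SD, n = 3 each). DNMT3L, their catalytically inactive partner of germ cells, had 0 reads in each library.

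In the PRC2 core, the catalytic subunit EZH2 fell and the scaffold SUZ12 had a higher mean. EZH2 (NCBI Gene 2146) lies on chromosome 7 from 148807383 to 148884291 (RefSeq, GRCh38.p14). It measured 38.4, 39.3 and 39.7 CPM in the shCTRL libraries and 31.2, 32.6 and 33.0 CPM in the shCCN3 libraries. Within each group these values lay close together, and the groups were well apart. EZH2 fell by 17.5%, log2 fold change -0.28 (SE 0.061, 95% interval -0.42 to -0.14, edgeR adjusted p = 0.00702). The change stayed between -0.29 and -0.25 with each library left out in turn.

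EZH2 shared its direction with its chromosome. Of the 821 genes tested on chromosome 7, 84.9% had a log2 fold change under 0, their overall median was -0.43, and 67.6% had a lower value than EZH2. All 24 of the tested genes nearest to EZH2, which reach 1.56 Mb from it, had a negative value, with a median of -0.44. The log2 fold change of EZH2 minus that median was 0.16, so EZH2 fell less than its neighbours. Copy number was not measured, and a change of EZH2 itself and one of its chromosome cannot be told apart here. For TET1 the neighbours had a median of 0.04, and the difference of TET1 from them was 0.67. DNMT3B, on chromosome 20 where the tested genes had a median of -0.12, had neighbours with a median of -0.03. For the other 7 enzymes the neighbours' medians lay between -0.09 and 0.13.

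SUZ12 measured 37.8, 32.5 and 31.4 CPM in the shCTRL libraries and 41.7, 35.5 and 45.1 CPM in the shCCN3 libraries. The groups overlapped through shCTRL replicate 1 and shCCN3 replicate 2. The log2 fold change was 0.27 (SE 0.104, 95% interval 0.03 to 0.50) with an edgeR adjusted p of 0.0774. Without shCCN3 replicate 2 it was 0.36 (edgeR adjusted p = 0.00636), and without shCTRL replicate 1 it was 0.35 (edgeR adjusted p = 0.0463). Without each of the other 4 libraries it was 0.19 to 0.25 with adjusted p-values of 0.184 to 0.245, and the offset lowered it to 0.18 (adjusted p = 0.0465). SUZ12 passed with DESeq2 (adjusted p = 0.0456). It did not pass with other scalings and filters, limma-voom or the replicate block (adjusted p of 0.0669 to 0.109). SUZ12 shares sequence with the pseudogene SUZ12P1, which had 561 to 667 reads in each library and a log2 fold change of 0.01, so the split of reads between both is uncertain. Added together they measured 41.4 to 47.3 CPM in shCTRL and 45.7 to 53.9 CPM in shCCN3 cells.

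EZH1, the catalytic subunit that is known to prevail in cells at rest, measured 15.9, 15.8 and 18.2 CPM in the shCTRL libraries and 15.7, 14.4 and 16.8 CPM in the shCCN3 libraries. Its log2 fold change was -0.09 (95% interval -0.30 to 0.12, edgeR adjusted p = 0.496). The ratio of EZH2 to EZH1 reads was 2.42, 2.49 and 2.18 in shCTRL and 1.99, 2.27 and 1.97 in shCCN3 cells, and it overlapped (exact permutation test, two-sided p = 0.2, adjusted p = 0.3). The ratio of EZH2 to SUZ12 reads was 1.02, 1.21 and 1.26 in shCTRL and 0.749, 0.918 and 0.732 in shCCN3 cells. It was lower in each shCCN3 library (exact permutation test, two-sided p = 0.1, adjusted over 6 ratios p = 0.3). With 3 libraries per group no ratio could reach 0.05.

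**Figure D2:**
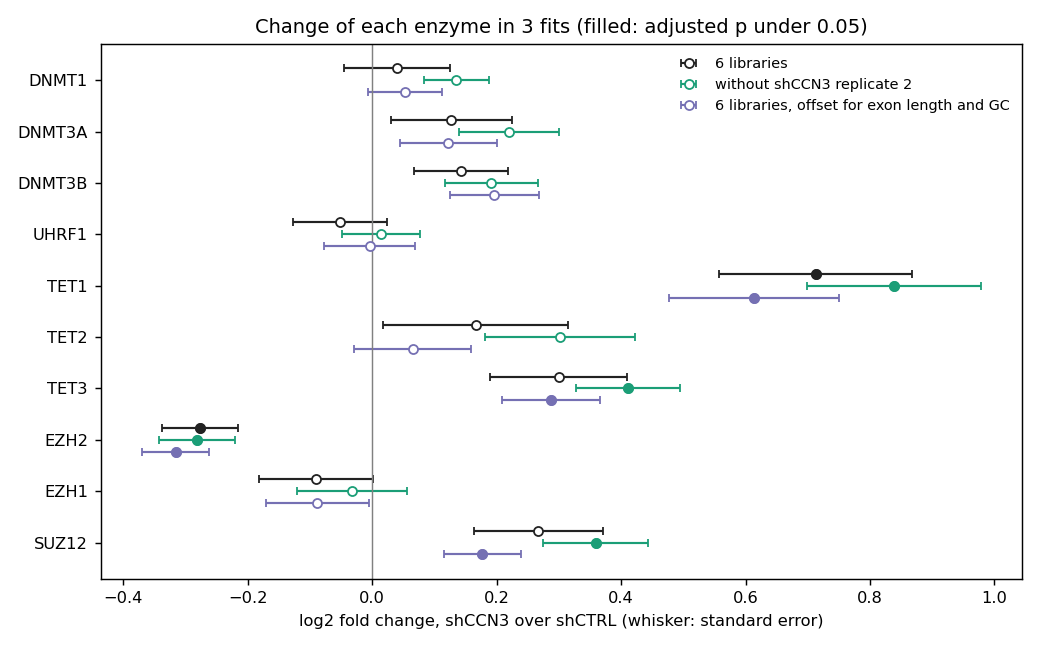
Log2 fold change of each enzyme, shCCN3 over shCTRL (x axis, whiskers are standard errors), in the fit of 6 libraries, in the fit without shCCN3 replicate 2 and in a fit with an offset for exon length and GC content. Filled symbols have an adjusted p under 0.05. They are found at TET1 and EZH2 in all 3 fits, and at TET3 and SUZ12 only without shCCN3 replicate 2 and with the offset. Fits with other scalings and filters, DESeq2, limma-voom and the replicate block are not drawn.

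Per kilobase of merged exon, the enzymes had the same order of mean levels in both groups. In shCTRL cells UHRF1 with 25.1, 27.2 and 28.0 CPM per kb and DNMT1 with 24.6 ± 0.846 CPM per kb (SD, n = 3 for this and the following means) led and overlapped each other. EZH2 followed with 8.65 ± 0.143, SUZ12 with 5.18 ± 0.519, DNMT3B with 4.01 ± 0.0943 and EZH1 with 2.38 ± 0.193 CPM per kb. TET3 with 1.51 ± 0.0965, DNMT3A with 1.09 ± 0.0448, TET2 with 0.629 ± 0.0786 and TET1 with 0.280 ± 0.0288 CPM per kb closed the order, and each of these 8 lay apart from the next. In shCCN3 cells EZH2 measured 7.14 ± 0.214 and SUZ12 6.23 ± 0.744 CPM per kb, and the highest SUZ12 library (6.89 CPM per kb) lay just under the lowest EZH2 library (6.90 CPM per kb). EZH1 and TET3 overlapped in shCCN3 cells. Merged exons count all annotated isoforms, which lowers the value of genes with many of them.

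The promoter windows found for the enzymes differed in CpG content. RefSeq promoter windows of 300 bases, 250 before and 50 after a transcription start, were found for all 10 enzymes, 22 windows in all, and 17 of them held more CpG dinucleotides than the median of 14 over 35116 windows. The 3 windows of TET1 held 6 to 11 CpG. The only window of DNMT3B, at chr20:32779602-32779901, held 3. It lies inside the gene, whose span starts at 32762385, so the start of that span was not searched. The windows of UHRF1 and TET3 lie inside their spans as well. The letters searched, all of E2F type, were TTTCGCG, then the variant TTTGGCG, then the variant TTTCCCG, and as the last one GCGGGAA, on either strand, and matches can overlap each other. At least 1 of them occurred in a window of 6 of the 10 enzymes, DNMT1, UHRF1, TET3, EZH2, EZH1 and SUZ12, against 13.9% of all genes with a window. Per window it was 7 of 22, against 11.7% of 35116. The enzymes had more windows per gene, 22 for 10 genes beside 35116 for 27305. All the searched letters hold a CpG, and most windows of the enzymes were rich in CpG. The shares are therefore not like for like, and enrichment was not tested. A match is a description of letters, not a site in use. Among these 6 enzymes EZH2 was lower, and TET3 and SUZ12 had higher means that did not pass in the edgeR fit of all libraries. DNMT1, UHRF1 and EZH1 had log2 fold changes of 0.04, -0.05 and -0.09. A link between the letters and these values was not tested. Stretches of 30 bases around 4 matches upstream of the start are shown because they carry this shared feature. They read along the strand of the gene, with the match in capitals, at chr19:4909471-4909500 (plus strand, 18 bases before the start of UHRF1), chr17:31936807-31936836 (plus strand, 189 bases before the start of SUZ12), chr17:42745141-42745170 (minus strand, 119 bases before the start of EZH1) and chr2:73984767-73984796 (plus strand, 132 bases before a start of TET3), all on GRCh38.p14.
UHRF1: caaatgccgagtTTTCGCGggaaaaaaatc
SUZ12: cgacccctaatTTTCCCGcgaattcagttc
EZH1: gagtgcggggtTTTGGCGgcaaatgacagt
TET3: ccctcccctccGCGGGAAccacccccctct
In UHRF1 a match to GCGGGAA and one to TTTCCCG overlap the one shown, and in SUZ12 a match to GCGGGAA does. The matches of DNMT1 and EZH2 reach into the transcribed bases and are not printed, and TET1 had none in its 3 windows.

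Of 20 listed partners of DNA methylation, 18 were tested, 2 were called higher and 1 lower, against the background of 33.4%, and their median log2 fold change was 0.08. MBD1, which binds methylated CpG, rose from 53.3 ± 1.03 to 69.5 ± 2.90 CPM (SD, n = 3 each), which is a log2 ratio of 0.38 (SE 0.059, edgeR adjusted p = 0.00105). IDH2, which makes the 2-oxoglutarate that TET enzymes use, rose by 0.25 on the log2 scale. CXXC5, a CXXC-domain protein, fell from 94.4 ± 5.43 to 68.8 ± 2.34 CPM (SD, n = 3 each), which is a log2 ratio of -0.46 (edgeR adjusted p = 0.000586). UHRF2, the relative of UHRF1, had a log2 fold change of -0.19 and did not pass (edgeR adjusted p = 0.0587). TDG, the glycosylase that removes the oxidised bases TET enzymes make, had 0.23 (edgeR adjusted p = 0.0693) and did not pass either. The IDH2 call was lost without shCTRL replicate 1 or shCTRL replicate 2 (log2 fold change 0.21 to 0.28 over all 6 such fits). The count of this list was 6 of 18 (33.3%) in place of 3 without shCCN3 replicate 2, where 40.5% of all genes were called, and 6 under the offset for length and GC content, where 39.1% were.

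Of 11 listed partners of PRC2, 10 were tested, 1 was called higher and 1 lower (20%, beside 33.4% of all genes), and the median log2 fold change was 0.13. Under the offset 5 of the 10 were called, against 39.1% of all genes. EPOP, a PRC2.1 subunit that binds elongin BC, rose from 4.41 ± 0.401 to 6.42 ± 0.437 CPM (SD, n = 3 each), which is a log2 ratio of 0.54 (edgeR adjusted p = 0.00557). RBBP4, a histone chaperone shared with other complexes, fell from 216 ± 2.23 to 172 ± 2.75 CPM (SD, n = 3 each), which is a log2 ratio of -0.33 (edgeR adjusted p = 0.00117), on chromosome 1 among neighbours with a median of -0.29. EED, the third core subunit beside EZH2 and SUZ12, had a log2 value of 0.04 for shCCN3 over shCTRL (edgeR adjusted p = 0.683). EPOP and RBBP4 kept their calls with each library left out.

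All 24 listed PRC1 genes were tested, 3 were called higher and 4 lower (29.2%, beside 33.4% of all genes), and the median log2 fold change was 0.07. Under the offset the count was 10 (41.7%, beside 39.1%). PHC2, a polyhomeotic subunit of canonical PRC1, had the largest change among the tested genes of the PRC1, PRC2, DNA methylation, opponent and replication lists. It measured 239, 250 and 252 CPM in the shCTRL libraries and 119, 127 and 115 CPM in the shCCN3 libraries. PHC2 fell by 51.1%, log2 fold change -1.03 (SE 0.061, edgeR adjusted p = 3.11e-06), among neighbours on chromosome 1 with a median of -0.31. Its log2 fold change minus that median was -0.72. Its relatives PHC1 and PHC3 had log2 fold changes of 0.10 and -0.01 and did not pass.

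The other called PRC1 genes moved less. SCMH1 had a log2 fold change of -0.38 among neighbours with a median of -0.34. CBX6, a chromobox reader, had -0.26 and L3MBTL2, of the PRC1.6 form, had -0.25, and their neighbours on chromosome 22 had medians of 0.02. PCGF5 and PCGF3, which define variant forms of PRC1, had 0.41 and 0.26, and RING1, one of the E3 ligase subunits, had 0.33 among neighbours on chromosome 6 with a median of 0.25. The PCGF3 call was lost without shCTRL replicate 3, shCCN3 replicate 1 or shCCN3 replicate 3 (log2 fold changes from 0.21), and that of L3MBTL2 without shCTRL replicate 3 or shCCN3 replicate 1 (from -0.22). BMI1 is the PCGF subunit whose protein the study followed as a stem cell marker. By western blot and immunofluorescence, the study reports less BMI1 after CCN3 knockdown. BMI1 mRNA measured 51.0, 40.7 and 42.7 CPM in shCTRL and 47.9, 39.3 and 53.9 CPM in shCCN3 cells. BMI1 overlapped, with a log2 fold change of 0.07 (95% interval -0.21 to 0.35, edgeR adjusted p = 0.702), and 1000 of its 4283 exon bases also belong to the read-through gene COMMD3-BMI1, which had 104 to 380 reads.

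Of 16 listed opponents of Polycomb, that is H3K27 demethylases, the H2A deubiquitinase and its cofactors, Trithorax-type methyltransferases and remodellers, 15 were tested, 2 were called higher and 1 lower (20%, beside 33.4% of all genes), and the median log2 fold change was 0.09. ASXL1, the cofactor of the deubiquitinase BAP1, measured 112, 111 and 105 CPM in the shCTRL libraries and 157, 146 and 164 CPM in the shCCN3 libraries. ASXL1 rose by 42.5%, log2 fold change 0.51 (SE 0.064, edgeR adjusted p = 0.000283), among neighbours on chromosome 20 with a median of 0.01. BAP1 itself rose from 141 ± 4.41 to 162 ± 0.606 CPM (SD, n = 3 each), which is a log2 ratio of 0.20 (edgeR adjusted p = 0.0170) in the fit of 6 libraries. That call was lost without shCTRL replicate 1, shCTRL replicate 2 or shCCN3 replicate 1 (log2 fold change 0.18 to 0.23 over all 6 fits). KMT2C fell by 0.34 on the log2 scale, on chromosome 7 among neighbours with a median of -0.48, and its call was lost in 4 of the 6 fits, those without shCTRL replicate 1, shCTRL replicate 2, shCCN3 replicate 1 or shCCN3 replicate 2 (-0.42 to -0.25 over all 6). The H3K27 demethylases KDM6A and KDM6B had log2 fold changes of 0.07 and -0.10 and did not pass. Leaving out shCCN3 replicate 2 raised the count of this list to 8 higher and 0 lower (53.3%, beside 40.5% of all genes), and leaving out shCTRL replicate 1, shCTRL replicate 2 or shCCN3 replicate 1 lowered it to 1 gene (6.67%, beside 23.4 to 27% of all genes).

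Genes of replication and mitosis, with which EZH2, UHRF1 and DNMT1 are known to vary, were called in 13 of 22 cases, or 59.1% against 33.4% of all genes, with 11 higher and 2 lower and a median log2 fold change of 0.18. GINS2 and CDT1 on chromosome 16 had log2 fold changes of 0.60 and 0.59, among neighbours with medians of 0.65 each. CCNE1, the G1/S cyclin E1, had 0.48 among neighbours with a median of 0.07, and the helicase subunit MCM3 had 0.43 among neighbours with a median of 0.36. MCM7, on chromosome 7 like EZH2, had -0.36 among neighbours with a median of -0.62, and PCNA had -0.36 among neighbours with a median of -0.54. The proliferation marker MKI67 had a log2 value of 0.08 for shCCN3 over shCTRL (edgeR adjusted p = 0.478). The list held more rises than falls, and the part of proliferation in the fall of EZH2 was not tested. In its own assays of cell number and colonies, the study reports less growth of Hs578T cells after CCN3 knockdown. The mRNA values of this list are not a measure of growth. The count of this list ranged from 7 to 15 with each library left out, and the lowest counts came without shCTRL replicate 3 or shCCN3 replicate 1 (7 each) and without shCTRL replicate 2 (8), which is 31.8 to 36.4% of the list where 23.4 to 26.3% of all genes were called.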

How the data were processed

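Per the labels, total RNA of Hs578T cells was made into stranded poly(A) libraries. The authors deposited raw read counts per gene, and the submitters' processing notes name Trimmomatic, HISAT2 2.1.0, StringTie and DESeq2 with GRCh38, without giving their roles. The annotation release and the use of strand in counting are not given in the sources used here, so values of overlapping genes and near copies are uncertain. CPM, TMM factors and the quasi-likelihood test came from edgeR 4.0.16 in R 4.3.3, with edgeR's filter by group and Benjamini-Hochberg adjustment over 17419 genes. Exact permutation tests used SciPy 1.17.1. Merged exon length and GC content came from GENCODE release 29 and were found for 85.7% of the genes tested, and positions and promoters came from RefSeq (GRCh38.p14). The 24 tested genes nearest by midpoint served as neighbours.

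Samples were grouped by their titles, and p-values measure the spread between these samples. The set of enzymes and the gene lists were chosen with earlier results of these data known. From each list, up to 4 genes in each direction were named whose adjusted p was under 0.05, whose groups did not overlap and whose mean reached 1 CPM, plus BMI1 and CCN3. Other genes named beside them were chosen after their values were seen. The alternatives were other scalings and filters, DESeq2 1.42.0, limma-voom with limma 3.58.1, a replicate block, each library left out, and, chosen after seeing the data, an offset for exon length and GC content. Replicate libraries differed beyond counting noise (chi-square per degree of freedom 7.04 to 45.5). On simulated counts of 17419 genes for this comparison, edgeR recovered 75 of 100 genes changed by 1 on the log2 scale and 39 of 100 changed by 0.5, with 10 false calls. Only 200 genes were changed there, while 5825 were called in the real data. Shifts of whole libraries by length or GC content were not simulated. These rates therefore check the procedure and do not give the power of the real comparison. Protein sequences of the enzymes were not analysed here.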

Additional observations from a re-analysis of the deposited data

How the results depend on the processing

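TET1 and EZH2 kept their direction and an adjusted p under 0.05 in each alternative run, with log2 fold changes from 0.61 to 0.84 for TET1 and from -0.32 to -0.25 for EZH2. The count of enzymes called was 4 in place of 2 with DESeq2 and 4 with the offset for exon length and GC content, and 2 to 4 with each library left out. The share of all genes called moved too. It was 33.4% in the main fit, 35.5% with DESeq2, 39.1% under the offset and 28.1% with the replicate block. With each library left out it was 23.4 to 40.5%. The counts below are to be read beside these shares. TET3 and SUZ12 were the genes added, with adjusted p-values of 0.0163 and 0.0465 under the offset and of 0.0361 and 0.0456 with DESeq2. Neither passed with the other scalings and filters, limma-voom or the replicate block (adjusted p of 0.0557 to 0.0910 for TET3, 0.0669 to 0.109 for SUZ12). DNMT1 and UHRF1 changed sign. DNMT1 ranged from -0.018 (without shCCN3 replicate 3) to 0.135 (without shCCN3 replicate 2), and UHRF1 from -0.105 (without shCCN3 replicate 1) to 0.014 (without shCCN3 replicate 2). Partners of DNA methylation called were 3 (16.7%), with 5 (27.8%) under DESeq2 and 6 (33.3%) under the offset. With each library left out they were 2 to 6 (11.1 to 33.3%). Opponents of Polycomb were 3 (20%), with 5 (33.3%) under DESeq2, 5 (33.3%) under the offset and 1 to 8 (6.67 to 53.3%) with each library left out. PRC2 partners were 2 (20%), and 5 (50%) under the offset. Genes of replication and mitosis were 13 (59.1%), with 7 to 15 (31.8 to 68.2%) when each library was left out. Germline genes were 5 (55.6%), with 2 (22.2%) under the replicate block and 2 to 4 (22.2 to 44.4%) when each library was left out. Of the 24 genes named from the lists, 17 were called under every setting. IDH2, PCGF3, L3MBTL2, BAP1, KMT2C, MAGEA3 and SSX1 were not. The cause was not tested. Same-numbered samples deviated together at correlations of 0.0891, -0.0256 and -0.0657, so the numbers were not taken as pairs. With the replicate block, 4887 in place of 5825 genes were called, and 2 of the 10 enzymes, EZH2 with an adjusted p of 0.0349 and TET1 with 0.00619. With 3 libraries per group, no permutation test could reach 0.05.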

Other observations

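Germline genes that DNA methylation is known to silence in somatic cells were looked at as a further list. Of 21 genes, 9 passed the filter, and 9 had at most 3 reads in every library. Of those tested, 2 were called higher and 3 lower (55.6%, beside 33.4% of all genes), with a median log2 fold change near 0 (-0.00272, also with STK31 at its bound). PRAME, a cancer-testis antigen on chromosome 22, fell from 151 ± 2.80 to 102 ± 3.19 CPM (SD, n = 3 each), which is a log2 ratio of -0.56 (edgeR adjusted p = 6.48e-05). SSX1 was lower by a log2 value of -0.24 (edgeR adjusted p = 0.0293) and MAGEA3 higher by 0.17 (edgeR adjusted p = 0.0387), and MAGEA3 has a near copy in MAGEA6, so its reads are uncertain. MAGEA1 was expressed at 83.9 to 86.3 CPM in shCTRL cells, with a log2 fold change of -0.0027 (edgeR adjusted p = 0.978). The 5 calls fell to 2 without shCTRL replicate 2, shCCN3 replicate 1 or shCCN3 replicate 3, and to 3 without shCTRL replicate 1 or shCTRL replicate 3 (22.2 to 33.3%, beside 23.4 to 27% of all genes). The MAGEA3 call was lost in 5 of the 6 fits that leave out a library, all but the one without shCCN3 replicate 2, and the SSX1 call in 4, all but those without shCTRL replicate 1 or shCCN3 replicate 2. PRAME kept its call in all 6.

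A pair of called germline genes was too low for the rule on named genes and was picked after the values were seen. STK31, on chromosome 7, had 23, 25 and 28 reads in the shCTRL libraries and 0 reads in each shCCN3 library, which makes it at least 7.96-fold lower when 3 counts per library are taken as the floor. HORMAD1 had 19, 13 and 22 reads in the shCTRL libraries and 37, 33 and 35 reads in the shCCN3 libraries (log2 fold change 1.04, edgeR adjusted p = 0.0242). That call was lost in 5 of the 6 fits that leave out a library, all but the one without shCTRL replicate 3, with log2 fold changes of 0.89 or more and adjusted p-values up to 0.0939, and under the replicate block.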
